A study of Homo sapiens with 18 samples.

Results

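Peroxiredoxins, the cysteine-based glutathione peroxidases GPX7 and GPX8, thioredoxin (TXN) and glutathione reductase (GSR) work through cysteine and not selenocysteine. They were taken from the deposited count table by Ensembl ID, as a contrast to mRNAs with a SECIS element, and all 10 of the 10 IDs were present among 58676. The data were 18 RNA immunoprecipitation (RIP) libraries from HEK293T, a readily transfected human embryonic kidney line, although the growth protocol names HEK293 cells. Cells carried transiently transfected Flag-SBP2, Flag-SBP2 with 100 nM sodium selenite added 4 h after transfection, or the Flag vector alone (control), and all were lysed at 48 h. Every group therefore contained a Flag plasmid, and SBP2 was overexpressed, not at its endogenous level. Each treatment gave 3 anti-Flag RIP and 3 input libraries, the input being drawn from the lysate before the beads were added. The series design calls the replicates biological, but no label says that they were transfected separately, so p-values measure the spread between these lysates.

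A SECIS element is a stem-loop in the 3′ untranslated region of a selenoprotein mRNA, and SBP2 binds it so that a UGA codon is read as selenocysteine. Peroxiredoxins reduce hydrogen peroxide and organic peroxides with a peroxidatic cysteine instead, and thioredoxin returns most of them to the reduced form. GPX7 and GPX8 are endoplasmic reticulum relatives of the selenium-dependent glutathione peroxidases that carry cysteine in the active site. GSR keeps glutathione reduced with NADPH. None of these proteins needs selenocysteine for its own synthesis.

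Library totals ran from 15.2 M to 29.9 M counts, and 17678 IDs passed the filter on low counts over the 18 libraries. GPX7 did not pass: it had 9 counts in all, 5 in RIP and 4 in input libraries, with at most 2 in any library and 0 in 11 of them. A count of 0 allows up to 3 counts, which is 0.1 to 0.198 counts per 1e+06 (CPM) at these depths, and its recovery was not measurable at this depth. The other 9 members were tested in every comparison, and each had at least 690 counts in every library. The Ensembl IDs were paired with symbols for these 10 genes alone, so selenoprotein mRNAs, other redox genes and HEK293T markers were not analysed here by name. No sequence of a 3′ untranslated region was used, so whether any of these mRNAs holds a SECIS-like fold was not examined.

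Levels below are CPM scaled by TMM factors, which adjust library size for composition. Log2 ratios are RIP CPM over input CPM within 1 lysate. Such levels are relative within a library, so neither they nor the ratios give an amount of RNA recovered. Enrichment over control is the RIP-over-input log2 change in an SBP2 treatment less the same change in the control, tested with edgeR over all IDs. A call means a Benjamini-Hochberg adjusted p under 0.05.

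The 9 measurable mRNAs fell into 3 patterns. PRDX5 had a higher level in RIP than in input with Flag-SBP2 and a lower one in the control. PRDX1, PRDX2, PRDX3, PRDX4 and PRDX6 stayed below input in all 3 treatments, but less so with Flag-SBP2 than in the control. For GPX8, TXN and GSR the RIP-to-input change with Flag-SBP2 did not pass a test against that of the control. All 6 peroxiredoxins, and no other of the 9 tested members, were called enriched over control without selenite, where 21.7% of all IDs were enriched and 18.1% depleted. The same 6 were called with selenite, where 19.3% of all IDs were enriched and 14.4% depleted. No member was called depleted. The members' median enrichment was log2 0.63 without and 0.68 with selenite, and that of all IDs was 0.022 and 0.026.

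Such calls against input were common in these libraries. With Flag-SBP2, 1 member was higher in RIP than in input and 7 were lower, where 30.3% of all IDs were higher and 31.7% lower. With selenite, 1 was higher and 7 lower, where 30.7% and 31.6% of IDs were. In the control, 0 were higher and 8 lower, where 31.5% and 39.8% of IDs were, and the members' median change was log2 -1.37 against -0.13 for all IDs. TXN was the 1 tested member not lower there.

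**Figure D1:**
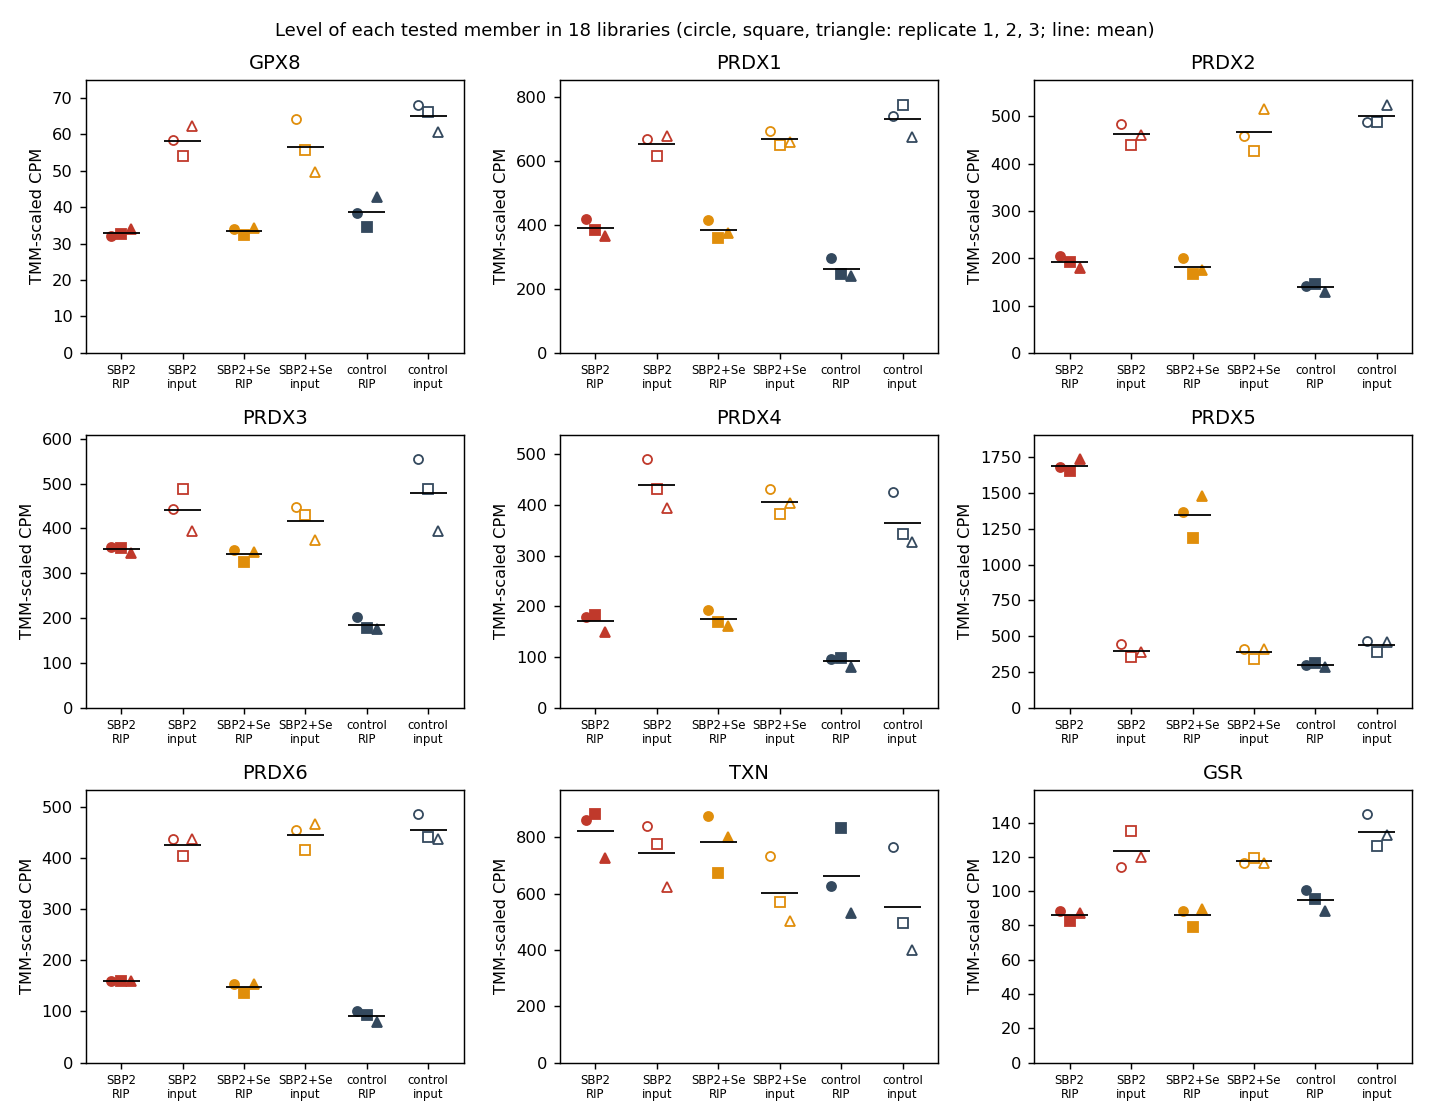
TMM-scaled CPM (vertical axis, from 0) of the 9 tested members in the 6 groups, with 1 point per library, filled for RIP and open for input, and a line at the mean of 3. The PRDX5 points for SBP2 RIP lie from 1656 to 1735 CPM, above its 9 input points, while the other peroxiredoxins lie lower in RIP than in input.

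PRDX5 encodes a peroxiredoxin found in mitochondria, peroxisomes and the cytosol that resolves its oxidised cysteine within 1 subunit. Its gene lies at chromosome 11, positions 64318121 to 64321811 (GRCh38.p14). Flag-SBP2 RIP libraries held 1685, 1656 and 1735 CPM of it, against 444.1, 356.9 and 389 CPM in their inputs. With selenite, RIP libraries held 1368, 1182 and 1482 CPM, against 410.7, 337.2 and 409.9 CPM in their inputs. Control RIP libraries held 295.5, 314.3 and 284 CPM, against 467.7, 391.9 and 461.1 CPM in their inputs. Every SBP2 RIP value, with or without selenite, was thus above every input value and every control RIP value, and the control RIP values were below their inputs.

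Within single lysates PRDX5 was 3.79, 4.64 and 4.46 times as high in RIP as in input with Flag-SBP2, and 3.33, 3.51 and 3.62 times with selenite. In control lysates it was 0.632, 0.802 and 0.616 times its input level. PRDX5 made up 0.165% to 0.173% of all counts in Flag-SBP2 RIP, against 0.0313% to 0.034% in control RIP. Against input, edgeR gave a log2 change of 2.09 (SE 0.102, adjusted p = 6.83e-15) with Flag-SBP2 and 1.80 (SE 0.101, adjusted p = 1.02e-13) with selenite. In the control the same change was -0.56 (SE 0.0987, adjusted p = 1.68e-05).

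The enrichment of PRDX5 over control was log2 2.66 (SE 0.141, 6.30-fold, edgeR adjusted p = 1.05e-13) and, with selenite, log2 2.36 (SE 0.141, 5.15-fold, edgeR adjusted p = 1.29e-12). Without selenite it ranked 178 and with selenite 200 among the 17678 tested IDs, so 1.00% and 1.13% of IDs lay above it. It was the only member among the 299 IDs with an enrichment of log2 2 or more in both comparisons, and it was not among the 61 at log2 3 or more. PRDX3 was the only other member among the 1470 IDs at log2 1 or more in both. With other scaling PRDX3 fell below that limit, at 0.96 and, with selenite, 0.97 with DESeq2 size factors. With library size alone it was at 0.90 and, with selenite, 0.95. For PRDX5, comparing the RIP libraries alone, without the inputs, gave log2 2.51 without and 2.17 with selenite (edgeR adjusted p = 2.59e-16 and 4.95e-15). Both comparisons used the same 3 control lysates.

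The annotated span of PRDX5 overlaps that of TRMT112, which encodes an activator of methyltransferases, over 476 bases, and the RefSeq table lists 1 pseudogene named after PRDX5. The sources used here do not say how reads in such overlaps were assigned or whether strand was used, and a share of TRMT112 reads in the PRDX5 count was not tested. The IDs whose log2 CPM followed PRDX5 most closely over the 18 libraries were ENSG00000198816 and ENSG00000183207, with Pearson's r of 0.996 each. For PRDX5 the SBP2 RIP libraries, with and without selenite, stood apart from all others, so the 2 values describe likeness alone.

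**Figure D2:**
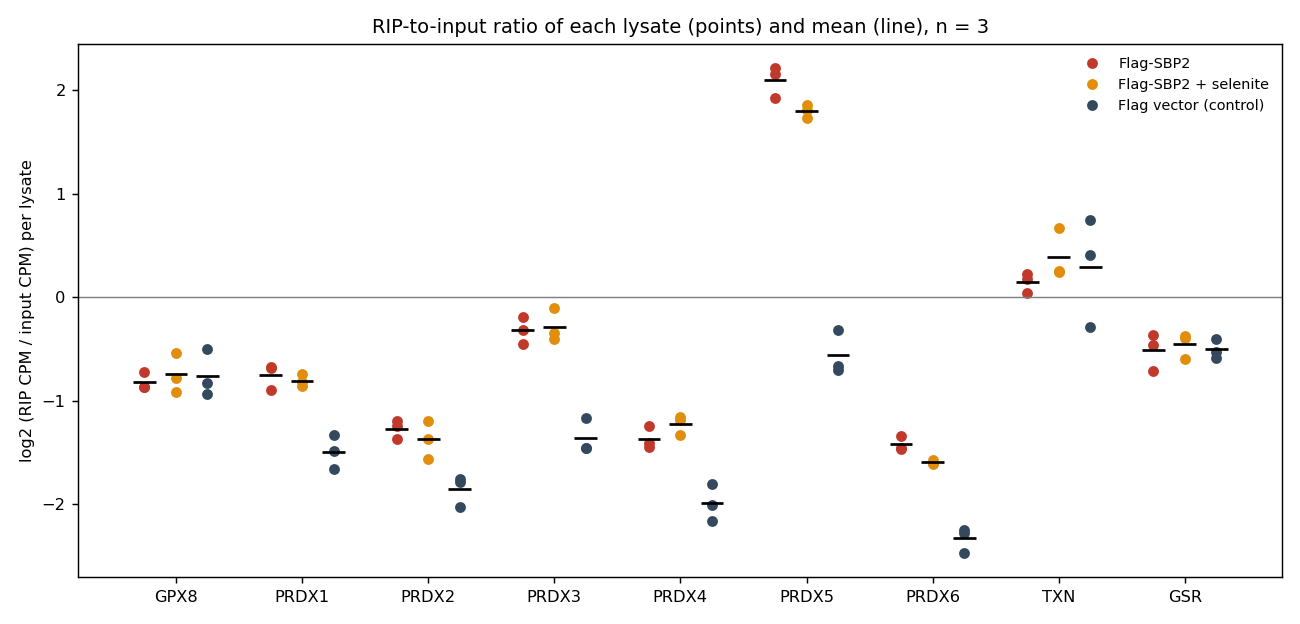
Log2 ratio of RIP CPM to input CPM in each of the 9 lysates (points) with the mean of 3 (line), for Flag-SBP2, Flag-SBP2 with selenite and control. PRDX5 lies above 0 in all 6 SBP2 lysates and below 0 in the 3 control lysates, and for every peroxiredoxin the SBP2 points lie above the control points without overlap.

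PRDX1 and PRDX2 are the abundant cytosolic peroxiredoxins of the typical 2-Cys class, which act as dimers and are reduced by thioredoxin. PRDX1 held 417.1, 383.9 and 364.4 CPM in Flag-SBP2 RIP, 416, 358.2 and 372.6 CPM in RIP with selenite, and 294.6, 245.2 and 240.7 CPM in control RIP. Its 9 inputs lay between 613.7 and 775.2 CPM. Control RIP values were therefore the lowest of the 3 RIP groups, with no overlap, and all RIP values were below all inputs. RIP levels of all 6 peroxiredoxins were above control RIP in this way, as were those of 33% of all IDs without and 30.8% with selenite. The log2 ratios of PRDX1 per lysate were -0.68, -0.68 and -0.89 with Flag-SBP2, -0.74, -0.86 and -0.82 with selenite, and -1.33, -1.66 and -1.48 in the control.

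The enrichment of PRDX1 over control was log2 0.74 (SE 0.124, edgeR adjusted p = 3.25e-05) and, with selenite, 0.68 (SE 0.124, edgeR adjusted p = 0.000109). PRDX2 held 204.2, 192.3 and 178.5 CPM in Flag-SBP2 RIP, 200.6, 166.1 and 175.4 CPM in RIP with selenite, and 142.3, 144.6 and 128.6 CPM in control RIP. The inputs of PRDX2 lay between 427.7 and 524.9 CPM, so its RIP values too were all below input. The enrichment of PRDX2 was the lowest of the family, at log2 0.59 (SE 0.123, edgeR adjusted p = 0.000417) and, with selenite, 0.48 (SE 0.123, edgeR adjusted p = 0.00328). With selenite PRDX2 did not pass when genes with low counts were kept (log2 0.32, edgeR adjusted p = 0.0631).

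PRDX3 is the mitochondrial typical 2-Cys peroxiredoxin, whose thioredoxin partner is the mitochondrial form. Flag-SBP2 RIP held 358.2, 357.2 and 345.5 CPM of it, RIP with selenite 352.9, 325.9 and 348.1 CPM, and control RIP 201.8, 178 and 175.9 CPM. Inputs ranged from 374.4 to 553.8 CPM, and control RIP was the lowest group without overlap. The enrichment of PRDX3 was the second highest of the family, with a log2 value of 1.05 (SE 0.145, edgeR adjusted p = 2.52e-06), or 2.07-fold, and of 1.08 (SE 0.146, edgeR adjusted p = 2.09e-06), or 2.12-fold, with selenite. Its ratio to input came close to 0 with Flag-SBP2, at -0.31, -0.45 and -0.19 per lysate without selenite and -0.34, -0.40 and -0.10 with it, against -1.46, -1.45 and -1.16 in control lysates.

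Against its own input PRDX3 was lower by the test in Flag-SBP2 RIP (log2 -0.32, SE 0.103, edgeR adjusted p = 0.00869) and in RIP with selenite (log2 -0.29, SE 0.103, edgeR adjusted p = 0.0182). These were the weakest of the calls against input. The first did not pass without SBP2 input replicate 2 (adjusted p = 0.0699). The second did not pass without selenite input replicate 1 (adjusted p = 0.0842) or 2 (0.0591), or without selenite RIP replicate 2 (0.0858).

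PRDX4 is the peroxiredoxin of the endoplasmic reticulum, where it couples peroxide reduction to disulfide formation. It held 179.8, 182.8 and 148.4 CPM in Flag-SBP2 RIP, 192.9, 168.6 and 160.4 CPM in RIP with selenite, and 95.22, 98.12 and 81.16 CPM in control RIP. Its inputs lay between 326.7 and 489.6 CPM. The enrichment over control was log2 0.63 (SE 0.154, edgeR adjusted p = 0.00177) and, with selenite, 0.77 (SE 0.154, edgeR adjusted p = 0.000307). PRDX6, the 1-Cys peroxiredoxin that also has phospholipase activity, held 159, 159.4 and 158.5 CPM in Flag-SBP2 RIP, 153.3, 135.8 and 153.7 CPM in RIP with selenite, and 100.1, 92.79 and 78.82 CPM in control RIP. Its inputs, at 402.6 to 485 CPM, were far above all of these. The log2 ratios of PRDX6 were -1.46, -1.34 and -1.46 in Flag-SBP2 lysates, -1.57, -1.61 and -1.60 with selenite, and -2.28, -2.25 and -2.47 in control lysates, the lowest of any member there. The enrichment of PRDX6 was log2 0.90 (SE 0.121, 1.87-fold, edgeR adjusted p = 1.36e-06) and, with selenite, 0.73 (SE 0.121, 1.66-fold, edgeR adjusted p = 3.5e-05).

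Ordered by enrichment without selenite, the family ran PRDX5, PRDX3, PRDX6, PRDX1, PRDX4 and PRDX2. The 95% interval of PRDX5, from 2.36 to 2.95, lay above that of PRDX3, from 0.75 to 1.35. Below PRDX5 each interval overlapped that of its neighbour in the order, down to PRDX2 at 0.33 to 0.84, so the order of these 5 is not settled. Lysate ratios of all 6 were above the control without overlap in both SBP2 treatments, as were those of 27.3% of all tested IDs without and 24.4% with selenite. No member lay below the control without overlap, where 23.8% and 18.9% of IDs did.

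**Figure D3:**
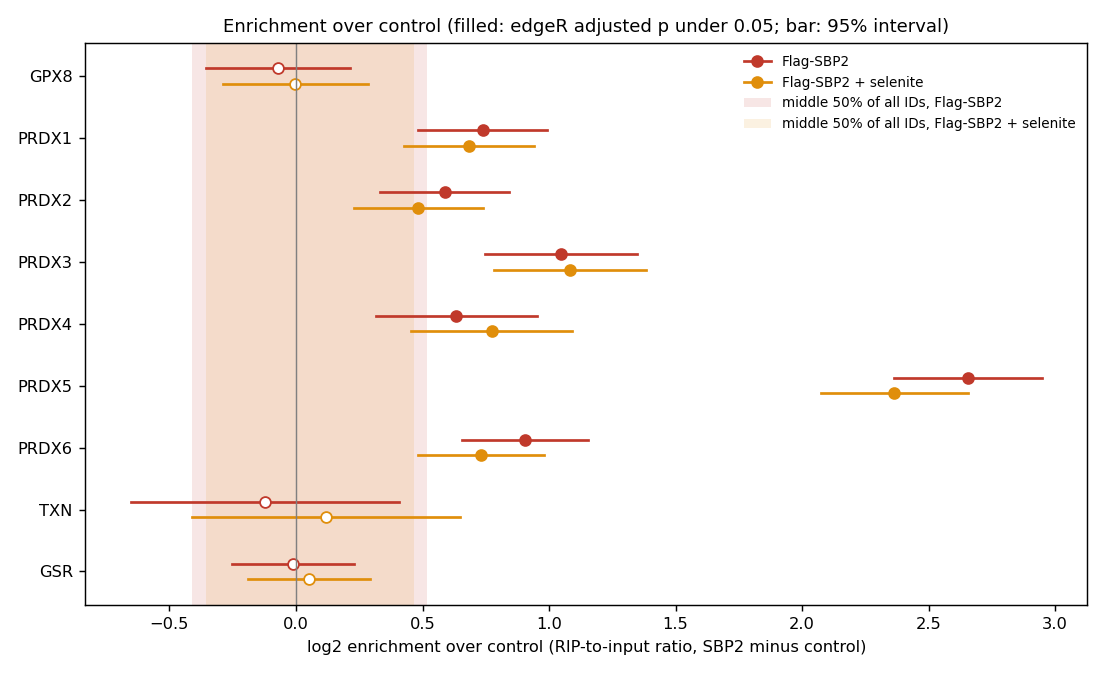
Log2 enrichment over control (horizontal axis) with its 95% interval for each tested member, for Flag-SBP2 (upper of each pair) and Flag-SBP2 with selenite, filled where the edgeR adjusted p was under 0.05. Shading marks the middle 50% of all 17678 IDs, the 6 peroxiredoxins are filled, and PRDX5 stands apart at 2.66 and 2.36.

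Outside the peroxiredoxins, enrichments were near 0. GPX8 held 31.99, 32.64 and 34.08 CPM in Flag-SBP2 RIP, 33.93, 32.47 and 34.2 CPM in RIP with selenite, and 38.37, 34.49 and 42.76 CPM in control RIP, against inputs of 49.74 to 68.18 CPM. Its RIP levels lay below control RIP without overlap in both SBP2 treatments, as did those of 31.5% of all IDs without and 28.3% with selenite. The enrichment of GPX8 was log2 -0.07 (95% interval -0.36 to 0.21, edgeR adjusted p = 0.727) and, with selenite, -0.0024 (-0.29 to 0.28, edgeR adjusted p = 0.993). GSR held 88.74, 82.47 and 87.41 CPM in Flag-SBP2 RIP, 88.63, 79.08 and 89.92 CPM in RIP with selenite, and 100.6, 95.68 and 88.66 CPM in control RIP, against inputs of 114 to 144.9 CPM. The enrichment of GSR was -0.01 (95% interval -0.25 to 0.23, edgeR adjusted p = 0.948) and, with selenite, 0.05 (-0.19 to 0.29, edgeR adjusted p = 0.778). Both mRNAs were lower in RIP than in input in all 9 lysates, and their lysate ratios overlapped between the treatments.

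TXN, the cytosolic thioredoxin that reduces peroxiredoxins and other disulfides, had the largest standard error of the 9 in both enrichments, at 0.257. It held 861.1, 881.9 and 726.4 CPM in Flag-SBP2 RIP against 839, 777.3 and 622.4 CPM in the inputs. With selenite the RIP libraries held 877.6, 674.5 and 802.3 CPM against 734.1, 569.2 and 504.3 CPM. Control RIP held 627.1, 834.2 and 530.3 CPM against 765.5, 495.2 and 399.1 CPM. In each treatment the input of replicate 1 was the highest and that of replicate 3 the lowest, and the control inputs alone spanned from 399.1 to 765.5 CPM.

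TXN was higher in RIP than in input in 8 of 9 lysates, the exception being control replicate 1. None of its 3 RIP-to-input changes passed: edgeR gave log2 0.14 (adjusted p = 0.517) with Flag-SBP2, 0.38 (adjusted p = 0.0724) with selenite and 0.26 (adjusted p = 0.199) in the control. With the lysate as a block, those with selenite (log2 0.39, edgeR adjusted p = 0.0121) and in the control (log2 0.29, edgeR adjusted p = 0.0489) passed. The control value also passed without control input replicate 1 (log2 0.57, edgeR adjusted p = 0.00236). With selenite it passed without input replicate 1 (log2 0.55, edgeR adjusted p = 0.0181) or RIP replicate 2 (log2 0.49, edgeR adjusted p = 0.0411). The enrichment of TXN over control was -0.12 (95% interval -0.65 to 0.41, edgeR adjusted p = 0.748) and, with selenite, 0.12 (-0.41 to 0.65, edgeR adjusted p = 0.77). At its upper end the TXN interval overlaps those of PRDX2 and PRDX4 without selenite, and those of PRDX1, PRDX2, PRDX4 and PRDX6 with it. The difference between TXN and the peroxiredoxins was not tested.

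The scaling moved the balance of all IDs but not the 6 calls. Library size alone shifted the median enrichment of all IDs by -0.15 without and -0.13 with selenite, and its calls were 3007 higher and 4368 lower without selenite, against 3844 and 3201 with TMM. With selenite they were 2670 and 3582, against 3416 and 2540 with TMM, and DESeq2 size factors gave 2784 and 3397. DESeq2 size factors shifted that median by -0.089 without and -0.11 with selenite. For control RIP against input, library size alone shifted the median of all IDs by 0.18 and DESeq2 size factors by 0.11. The calls over all IDs there were 5571 higher and 7039 lower with TMM, 6600 and 5952 with library size alone, and 6238 and 6333 with DESeq2 size factors. With no filter on low counts they were 6580 and 6099. TXN was called higher in control RIP than in input with library size alone (log2 0.46, edgeR adjusted p = 0.0184).

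A ratio of members within a lysate holds no scaling factor. Taken relative to GSR, chosen for this after its values were seen, the PRDX5 ratio was 2.61 ± 0.322 with Flag-SBP2, 2.25 ± 0.138 with selenite and -0.057 ± 0.121 in the control (log2, SD, n = 3). That of PRDX3 was 0.20 ± 0.126, 0.17 ± 0.108 and -0.85 ± 0.246, and that of PRDX1 was -0.24 ± 0.247, -0.35 ± 0.0909 and -0.99 ± 0.241. As GSR itself had an enrichment near 0, such differences from the control return the enrichments above by construction and are no check on the scaling. An exact permutation test of 3 against 3 lysates cannot go below p = 0.1, two-sided.

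Selenite supplies the selenium for selenocysteine, and its effect on recovery with SBP2 was taken as the difference between the SBP2 treatments. edgeR called 0 of the 9 members and 0% of all IDs, and DESeq2 called 0 of either. Of the members 1 had an unadjusted p under 0.05 in edgeR, as had 800 of all IDs. PRDX5 had the lowest difference, at log2 -0.29 (95% interval -0.58 to -0.0063, edgeR adjusted p = 0.989), with 3 of 3 lysates below those without selenite. PRDX6 differed by -0.17 (95% interval -0.42 to 0.07) with lysate ratios that also lay below without overlap, and TXN by 0.24 (-0.29 to 0.77) with ratios above without overlap. Without overlap, 7.77% of all IDs lay below and 5.18% above. For each of these members the exact permutation p was 0.1, the smallest that 3 against 3 lysates can give, two-sided. The other 6 members differed by between -0.10 and 0.14, and their intervals all held 0.

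Input libraries gave the mRNA levels in the lysate, where less RNA per cell and fewer expressing cells cannot be told apart. None of the 9 members passed in any of the 3 input comparisons. Flag-SBP2 inputs against control inputs had 0.361% of 16616 IDs called higher and 0.518% lower. The highest member differences there were those of TXN, log2 0.44 (95% interval 0.02 to 0.85, edgeR adjusted p = 0.312), and PRDX4, log2 0.27 (0.03 to 0.50, edgeR adjusted p = 0.266). Both passed without control input replicate 1, at log2 0.75 (edgeR adjusted p = 0.0158) and 0.40 (edgeR adjusted p = 0.0366). Of 16970 IDs tested without that library, 398 were called higher and 339 lower. With the replicate number as a block both members also passed, where 1233 of 16616 IDs were called higher and 1501 lower. In deviations from group means, same-numbered libraries of these 2 input groups correlated at 0.085 to 0.22. Differently numbered ones correlated at -0.22 to 0.027. The other 7 members lay between -0.15 and -0.09, and PRDX5 was at -0.15 (95% interval -0.38 to 0.09).

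Flag-SBP2 inputs with selenite against those without had 0.00602% of IDs called higher and 0% lower, and the members differed by between -0.31, for TXN, and 0.06, for PRDX6. Against control inputs, where 0.307% of IDs were called higher and 0.247% lower, they lay between -0.20, for GPX8, and 0.16, for PRDX4. With the replicate number as a block the first called 5 IDs higher and 32 lower, and the second 375 higher and 755 lower, with 0 members in either. PRDX2 inputs with Flag-SBP2 and GSR inputs with selenite lay below control inputs without overlap, as did 12.6% and 8.39% of all IDs. No member lay above control inputs in this way, where 7.86% and 6.5% of IDs did, and none was free of overlap between the SBP2 inputs, where 3.63% were above and 2.82% below.

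**Figure D4:**
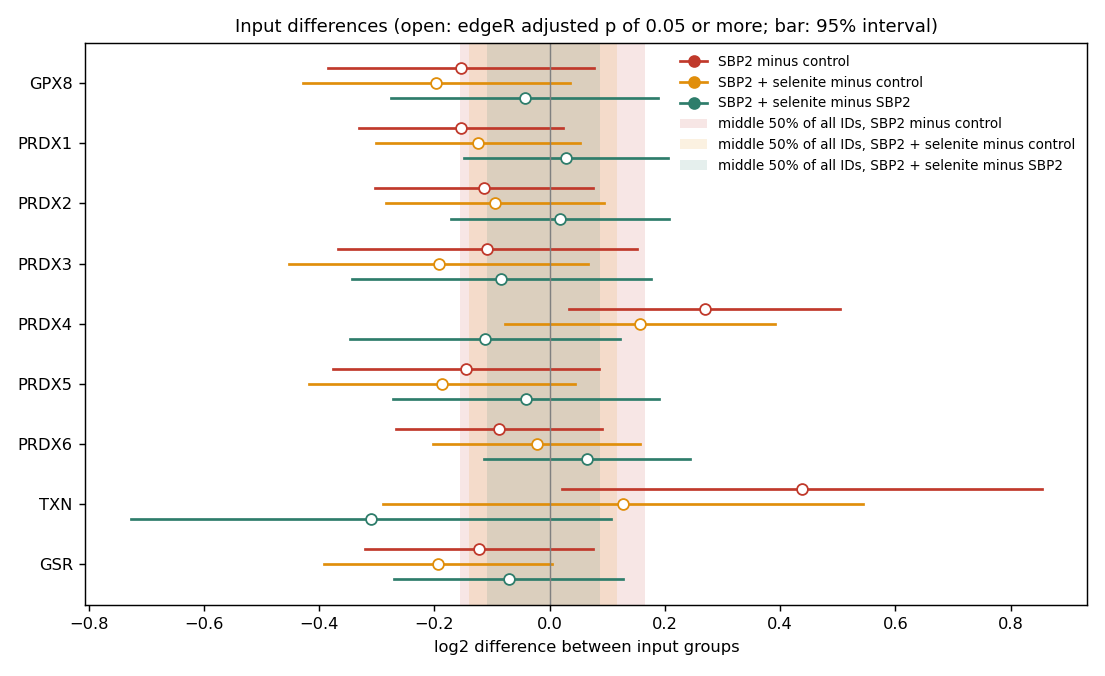
Log2 differences between input groups (horizontal axis) with 95% intervals for the 9 tested members, for SBP2 minus control, SBP2 with selenite minus control and SBP2 with selenite minus SBP2. All points are open, since no adjusted p was under 0.05, and they lie between -0.31 and 0.44, both for TXN.

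Positions of the other members in GRCh38.p14, by symbol in RefSeq, were as follows. PRDX1 (ENSG00000117450) lies on chromosome 1 from 45511051 to 45522890 and overlaps MMACHC over 2332 bases, and PRDX6 (ENSG00000117592) lies on the same chromosome from 173477335 to 173488815 and overlaps the long noncoding RNA gene LOC124904456 over 53 bases. PRDX2 (ENSG00000167815) lies on chromosome 19 from 12796823 to 12801800, PRDX3 (ENSG00000165672) on chromosome 10 from 119167720 to 119178812 and PRDX4 (ENSG00000123131) on chromosome X from 23667493 to 23686397. GPX8 (ENSG00000164294), on chromosome 5 from 55160171 to 55167297, lies wholly within the span of CDC20B. TXN (ENSG00000136810) lies on chromosome 9 from 110243810 to 110256507, GSR (ENSG00000104687) on chromosome 8 from 30678066 to 30727846 and GPX7 (ENSG00000116157) on chromosome 1 from 52602371 to 52609051. PRDX5 is ENSG00000126432. The RefSeq table names 7 pseudogenes after TXN, 4 each after PRDX2 and PRDX3, 2 after PRDX4 and 1 after PRDX1, and the counting of reads shared with them is not given in the sources used here.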

How the data were processed

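The authors deposited whole-number read counts per Ensembl gene ID for 18 libraries. Trim Galore 0.6.6, STAR 2.7.6a, featureCounts 2.0.1 and GRCh38 (hg38) are named in the submitters' processing notes, and the sources used here do not give the annotation, the strand setting or the treatment of multiple matches. Samples were grouped by title. All 10 members were reported, with no selection among them, and the members, lists and tests were chosen with earlier results of these data known. The reference table carried Ensembl IDs for 0 of 59792 genes, so members took their symbols from the rule that defined them, and planned lists of other genes were not used.

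Counts were filtered with filterByExpr (minimum count 10, minimum total 15) and scaled by TMM, and edgeR 4.0.16 in R 4.3.3 ran the quasi-likelihood test with Benjamini-Hochberg adjustment over all tested IDs. RIP comparisons used group means over 18 libraries (17678 IDs), and input comparisons the 9 inputs (16616 IDs). Standard errors came from the test statistic, and 95% intervals from its t quantile. Log2 ratios used a prior count of 2. The tests were two-sided and were checked on simulated data. Alternatives were DESeq2 1.42.0 and its size factors, library size alone, no low-count filter, a replicate block, RIP against RIP, and each library left out. The replicate block was the lysate in RIP comparisons and the replicate number in input comparisons.

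Pairing was checked by correlating deviations from group means. RIP and input libraries with 1 number were taken as 1 lysate, since the labels' protocol draws the input from that sample. They correlated at only 0.0012 to 0.19, and differently numbered ones of 1 treatment at -0.19 to 0.076. Control RIP replicate 2 correlated at 0.018 with input 2 and at 0.076 with input 1. Selenite RIP replicate 3 correlated at 0.0012 with input 3 and at 0.0015 with input 2. The correlations thus give this pairing little backing. Same-numbered inputs with selenite correlated with SBP2 inputs at 0.11 to 0.19 and with control inputs at 0.13 to 0.31, and SBP2 with control inputs at 0.085 to 0.22.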

Additional observations from a re-analysis of the deposited data

Results flagged for a closer look

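The RIP-to-input change differed between Flag-SBP2 and control lysates, by edgeR's test of the interaction, for all 6 peroxiredoxins. Of all IDs, 21.7% were called higher and 18.1% lower without selenite, and 19.3% and 14.4% with it. The log2 differences were 2.66 for PRDX5, 1.05 for PRDX3, 0.90 for PRDX6, 0.74 for PRDX1, 0.63 for PRDX4 and 0.59 for PRDX2. With selenite they were 2.36 for PRDX5, 1.08 for PRDX3, 0.77 for PRDX4, 0.73 for PRDX6, 0.68 for PRDX1 and 0.48 for PRDX2. The same 3 control lysates entered both sets of values. PRDX5 changed in opposite directions, higher in RIP than in input in 6 of 6 SBP2 lysates and lower in 3 of 3 control lysates. PRDX1, PRDX2, PRDX3, PRDX4 and PRDX6 were lower in RIP than in input in every lysate, but less so with Flag-SBP2.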

How the results depend on the processing

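With 3 lysates per group the number of lysates limits precision, and depth limited GPX7 alone. The upper count given for GPX7 covers counting error only. Intervals on log2 values came from the edgeR test statistic and so include the spread between lysates. The 6 peroxiredoxin enrichments, over 2 treatments and all settings including each library left out, stayed higher and past the threshold in 215 of 216 values. These settings include RIP against RIP, which leaves the inputs out. The exception was PRDX2 with selenite and no low-count filter (log2 0.32). PRDX5 enrichment lay between 2.59 and 2.74 with a library left out, and between 2.27 and 2.44 with selenite. Over all members and comparisons, 1016 of 1080 values kept direction and call, and the cause of the other changes was not tested.

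TXN moved most counts of members called. Members higher in control RIP than input numbered 1, not 0, with library size alone, with no low-count filter and with the replicate block, and 0 to 1 with a library left out. With selenite they numbered 2, not 1, under the same 3 settings, and 1 to 2 with a library left out. Of all IDs, 6600 of 17678 were higher in control RIP with library size alone. With no filter 6580 of 35033 were, and with the block 5685 of 17678. With selenite 5806, 5424 and 5584 were higher under these settings. In SBP2 against control inputs, which share only a replicate number, 1 member was higher with no filter and 2 with the replicate block (PRDX4 log2 0.27, edgeR adjusted p = 0.00463, and TXN log2 0.48, edgeR adjusted p = 0.000185), and 0 to 2 with a library left out. Of all IDs, 60 were higher and 86 lower there, against 1233 and 1501 of 16616 with the block and 370 and 311 of 31680 with no filter. The replicate block changed no other call of a member.

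Signs turned for values near 0 in the main fit. Comparing RIP with RIP leaves the inputs out, so it gives a difference in RIP level and not an enrichment. From control, that difference was 0.31 for TXN without selenite, where the TXN inputs differed by 0.44, and -0.15 for GSR with selenite. Between the SBP2 treatments it was -0.047 for PRDX3, -0.069 for TXN and -0.0060 for GSR. With selenite, the replicate block gave GPX8 0.0075. Library size alone gave TXN -0.021, GSR -0.082 and the PRDX6 input difference from control 0.021. With no filter TXN was at -0.049 and GSR at -0.11, and GSR was at -0.056 with DESeq2 size factors and at -0.057 with the DESeq2 test.

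With a library left out, enrichment without selenite ranged from -0.43 to 0.065 for TXN and from -0.092 to 0.061 for GSR. With selenite it ranged from -0.092 to 0.099 for GPX8, from -0.19 to 0.31 for TXN and from -0.029 to 0.096 for GSR. Selenite effects ranged from -0.016 to 0.17 for GPX8, from -0.12 to 1.8e-05 for PRDX1, from -0.042 to 0.11 for PRDX3 and from -0.0092 to 0.12 for GSR. Input differences with selenite against SBP2 ranged from -0.14 to 0.040 for GPX8, from -0.012 to 0.056 for PRDX1, from -0.062 to 0.078 for PRDX2, from -0.11 to 0.048 for PRDX5 and from -0.13 to 0.0038 for GSR. Against control inputs PRDX3 ranged from -0.21 to 0.018 with SBP2, and with selenite PRDX6 ranged from -0.058 to 0.036 and TXN from -0.036 to 0.44.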
